A study of Mus musculus with 18 samples.

Results

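Cdx1, Cdx2 and Cdx4 are the 3 caudal homeobox genes of the mouse. They were taken from the deposited expression table by matching its Ensembl identifiers to gene symbols, and they are 3 of its 53465 gene identifiers. Cdx1 is ENSMUSG00000024619, Cdx2 is ENSMUSG00000029646 and Cdx4 is ENSMUSG00000031326. Each has 1 annotated transcript of 3 exons, and 0 annotated genes overlap any of them on either strand.

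The study sequenced polyadenylated RNA from 9 mouse embryos at embryonic day 9, each cut into a posterior and an anterior piece, giving 18 libraries. The posterior piece held the axial bud with the newest 10 to 12 somites, and the anterior piece held the older somites, without the head region that has none. Of the embryos, 5 were controls (20 to 24 somites) and 4 were double mutants, called DKO here (also 20 to 24 somites), in which Meis1 and Meis2 were conditionally deleted with Delta1Cre, a Cre driver named for the Notch ligand gene Delta1. The control label gives no allele or Cre status, so what controls and mutants share beyond stage is not stated. Because deletion follows the driver, cells that never expressed the Cre keep both genes, and each piece mixes neural, mesodermal, endodermal and other cells. The stated aim was to find Meis targets that act in patterning the skeleton from head to tail. The questions for the caudal genes were how far their levels differed between the pieces, between genotypes and with somite number.

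CDX proteins are homeodomain transcription factors that bind DNA in the tail end of the embryo, where they promote axis elongation and the activation of trunk Hox genes. Their own genes respond to Wnt, FGF and retinoic acid signals, and Cdx1 is described as a direct target of Wnt and of retinoic acid. Cdx2 also specifies hindgut endoderm, and Cdx4, which is X-linked, is expressed in the tail bud. MEIS proteins, the factors deleted here, are homeodomain cofactors of HOX proteins.

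The sequences just before the starts of Cdx2 and Cdx4 are shown because both genes were far higher in the posterior piece, Cdx4 more strictly so. They come from the RefSeq promoter windows on GRCm38.p6, which matched 2 of the 3 members. Each is written 5′ to 3′ on the gene's own strand and ends at the base before the start. The capitals mark AATGCAAAT, the longest run of bases the windows share. The Cdx2 sequence is chr5:147307250-147307499 on the minus strand and the Cdx4 sequence is chrX:103321148-103321397 on the plus strand.
Cdx2: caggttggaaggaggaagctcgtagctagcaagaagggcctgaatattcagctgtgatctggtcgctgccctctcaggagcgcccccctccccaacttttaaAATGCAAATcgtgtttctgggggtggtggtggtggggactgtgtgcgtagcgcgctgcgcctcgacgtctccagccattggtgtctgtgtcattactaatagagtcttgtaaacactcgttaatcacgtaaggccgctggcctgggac
Cdx4: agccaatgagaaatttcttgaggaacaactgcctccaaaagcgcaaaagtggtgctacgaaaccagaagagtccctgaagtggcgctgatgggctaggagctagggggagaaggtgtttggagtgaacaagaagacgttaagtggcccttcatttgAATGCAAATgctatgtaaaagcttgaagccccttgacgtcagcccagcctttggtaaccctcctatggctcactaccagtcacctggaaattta
The shared run of 9 bases starts 148 bases before the start of Cdx2 and 94 bases before that of Cdx4. It contains ATGCAAAT, the octamer known as a binding motif of POU-domain factors. It was picked after the windows had been read, and on either strand it occurs in 136 of 32841 promoter windows of 300 bases (0.41%). The full Cdx2 window, which runs from 250 bases before to 50 bases after the start, had 57.3% G and C and 18 CpG dinucleotides. The Cdx4 window had 50.3% and 8, against medians of 52.7% and 7 over all windows. Motifs searched on both strands were the CDX core TTTATG, the LEF/TCF core CTTTGA, the retinoic acid receptor half-sites AGGTCA and AGTTCA, and the MEIS core TGACAG. None of the 5 was in either window. They occur in 11.9%, 16%, 16.3%, 14% and 19.2% of all windows, respectively. A match would be a description only, and no match says nothing of binding elsewhere.

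Library totals ranged from 12650973 to 38180348 estimated counts. Levels are given as CPM, counts scaled to a common library size with edgeR's TMM method, and 3 counts correspond to 0.0791 to 0.233 CPM. As a check of the deletion, mean Meis2 was 190 ± 10.0 CPM (SD, n = 5) in anterior controls and 143 ± 11.3 (n = 4) in anterior DKO libraries, and 143 ± 16.8 against 99.5 ± 11.4 in the posterior piece. The lowest control and highest DKO values of Meis2 were 177 and 157 CPM in the anterior piece, and 117.1 and 116.1 CPM in the posterior. Meis1 was 125 ± 8.66 against 102 ± 9.52 CPM in the anterior piece and 84.5 ± 15.2 against 57.5 ± 11.8 in the posterior. Posterior Meis1 overlapped between genotypes, with control 2 (59.6 CPM) below DKO 2 (72.0) and DKO 4 (62.3). In neither piece did edgeR call Meis1 or Meis2. These counts are per gene, so single exons were not read. Replicates are separate embryos. The embryo labelled female as control 1 had Y-linked reads (sums of 151 and 161 CPM over 4 genes) and almost no Xist (0.340 and 0.200 CPM), so sex is described below by Y-linked reads rather than by label.

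Cdx4 was the most strictly posterior member. Posterior controls 1 to 5 held 64.1, 128, 50.1, 78.0 and 84.0 CPM, and posterior DKO libraries 1 to 4 held 86.6, 60.9, 132 and 59.2 CPM. The anterior controls gave 1, 8, 0, 0 and 0 counts, and the anterior DKO libraries 3, 1, 2 and 0 counts. All 9 posterior libraries were thus far above all 9 anterior ones, and 4 anterior libraries had no count for the gene, which allows up to 0.104 to 0.233 CPM there. Summed over controls, 9974 posterior against 9 anterior counts gave a level 786-fold higher in the posterior piece relative to library size (95% exact interval 414 to 1720, counting error only). In DKO embryos 7655 against 6 counts gave 1376-fold (632 to 3751), an interval that overlaps that of the controls. The edgeR log2 difference was 9.57 (SE 0.460, adjusted p = 4.12e-08) in controls and 10.35 (SE 0.484, adjusted p = 8.47e-07) in DKO embryos, values that depend on the prior count because the anterior level is near 0. Without control 2 the value in controls was 11.63.

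Cdx2 was also far higher in the posterior piece, less strictly than Cdx4, with a small anterior remainder. Posterior controls 1 to 5 held 80.9, 152, 67.2, 97.6 and 97.3 CPM, and posterior DKO libraries 1 to 4 held 124, 84.0, 154 and 136 CPM. Anterior controls 1 to 5 gave 1, 22, 2, 2 and 14 counts, and anterior DKO libraries 1 to 4 gave 3, 3, 7 and 45 counts. The pieces did not overlap, and in the anterior piece most of the Cdx2 counts came from 3 libraries: control 2 (0.852 CPM), control 5 (0.907 CPM) and DKO 4 (1.56 CPM). Control 2 and DKO 4 were also 2 of the 3 anterior libraries with the highest summed level of 15 gut endoderm genes (250.8 and 230.0 CPM). The range over anterior libraries was 139.7 to 250.8 CPM. The other of the 3 was DKO 3 (243.2 CPM), with only 7 Cdx2 counts, and control 5 lay at 175 CPM. The part of gut tissue in these counts was not tested. Over all embryos the posterior level was 212.5-fold the anterior in controls (exact interval 156.6 to 296.3) and 208.9-fold in DKO embryos (161.5 to 275.3). The edgeR log2 difference was 7.75 in both (SE 0.387, adjusted p = 5.64e-08 in controls, and SE 0.475, adjusted p = 4.40e-06 in DKO embryos), and 9.32 in DKO embryos without DKO 4. Of all genes tested, 25.4% passed this comparison in controls (12.1% higher and 13.3% lower posteriorly) and 18.5% in DKO embryos (8.76% higher, 9.7% lower). Without DKO 1 the number called in DKO embryos went from 2913 to 1728.

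**Figure D1:**
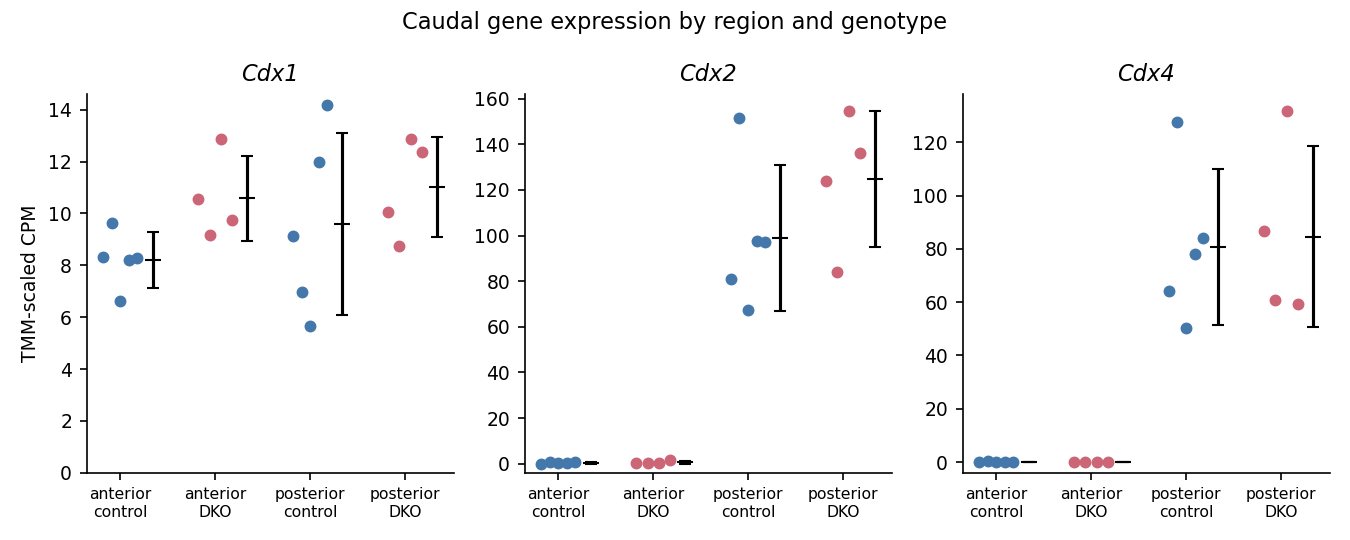
TMM-scaled CPM (vertical axis, linear, a different range in each panel) of Cdx1, Cdx2 and Cdx4 in the 4 groups; each point is 1 library, and the bar beside it is the mean ± SD (n = 5 control, n = 4 DKO). Cdx2 and Cdx4 lie near 0 in all anterior libraries and above 50 CPM in all posterior libraries, while Cdx1 spans 5.65 to 14.2 CPM with all 4 groups overlapping.

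Cdx1, in contrast, was at similar levels in both pieces. The gene spans positions 61018862 to 61036199 of chromosome 18, minus strand (GRCm38). Anterior controls 1 to 5 held 8.33, 9.65, 6.61, 8.22 and 8.29 CPM and posterior controls 9.15, 6.96, 5.65, 12.0 and 14.2 CPM. Anterior DKO libraries 1 to 4 held 10.6, 9.16, 12.9 and 9.75 CPM and posterior DKO libraries 10.1, 8.76, 12.9 and 12.4 CPM. The pieces overlapped in both genotypes, and the posterior controls had the widest spread, from control 3 at the bottom to control 5 at the top. The posterior minus anterior log2 difference was 0.21 in controls (95% interval −0.27 to 0.69, edgeR adjusted p = 0.546) and 0.06 in DKO embryos (−0.28 to 0.40, adjusted p = 0.852). The control value was 0.37 without control 2, 0.12 without control 4 and 0.05 without control 5, and the DKO value was −0.05 without DKO 4, with none past the threshold. Within embryos, Cdx1 was higher in the posterior piece in 4 of 9, whereas Cdx2 and Cdx4 were higher there in 9 of 9.

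Because the transcripts differ in length (1750, 2261 and 1963 bases of exon for Cdx1, Cdx2 and Cdx4), levels of different genes are compared as CPM per kilobase. In posterior controls Cdx2 was at 43.8 ± 14.2 and Cdx4 at 41.2 ± 14.9 CPM per kilobase (SD, n = 5), with Cdx1 at 5.48 ± 2.01. Cdx1 made up 2.92 to 8.64% of the summed per-kilobase level of the 3 genes in the 9 posterior libraries and 89.0 to 98.9% in the 9 anterior ones. The anterior sum itself was small, 3.85 to 7.60 against 58.5 to 143 CPM per kilobase. Thus nearly all caudal transcript in the older axis was Cdx1, while its own level overlapped that of the posterior piece.

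Cdx2 and Cdx4 kept nearly equal per-kilobase levels in posterior controls, with Cdx2 to Cdx4 ratios of 1.095, 1.03, 1.16, 1.09 and 1.01 in embryos 1 to 5. The DKO ratios were 1.24, 1.20, 1.02 and 1.996. DKO 4 stood apart, with the second-highest DKO level of Cdx2 (60.2 CPM per kilobase) and the lowest of Cdx4 (30.2). The genotypes overlapped, since DKO 3 (1.02) lay among the controls.

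**Figure D2:**
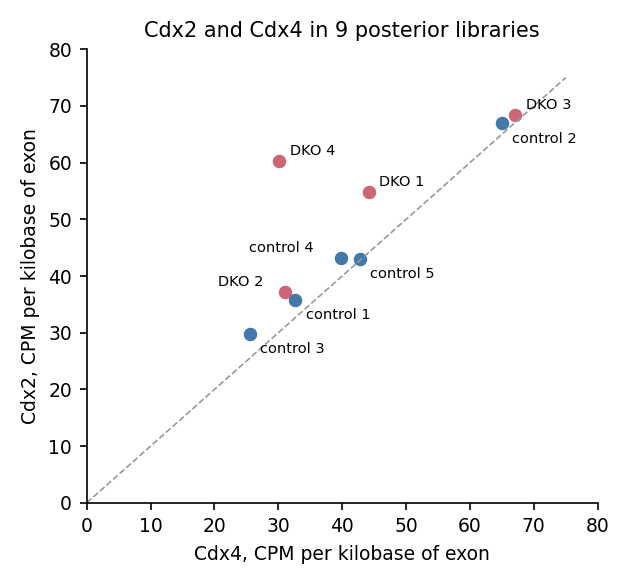
Cdx2 (vertical axis) against Cdx4 (horizontal axis), both in CPM per kilobase of exon, in the 9 posterior libraries; blue points are controls, red points are DKO, and the dashed line marks equal levels. The libraries lie close to the line at ratios of 1.01 to 1.24, except DKO 4 at 1.996.

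Between genotypes, edgeR called none of the members, in a comparison where it called few genes at all: 0.0394% of those tested in the anterior piece and 0.0126% in the posterior. Posterior Cdx2 averaged 98.9 ± 32.1 CPM in controls and 125 ± 29.9 in DKO libraries, a log2 difference of 0.33 (95% interval −0.16 to 0.82, adjusted p = 0.554), which was 0.54 without control 2 and 0.21 without DKO 3. Posterior Cdx4 averaged 80.8 ± 29.3 and 84.6 ± 33.8 CPM, a log2 difference of 0.06 (−0.55 to 0.68, adjusted p = 0.938), which changed sign without control 1 (−0.01), control 3 (−0.07) or DKO 3 (−0.23). Both genes spread widely within each genotype and the genotypes overlapped, and the intervals still hold log2 differences of up to 0.82 for Cdx2 and 0.68 for Cdx4. Posterior Cdx1 averaged 9.59 ± 3.52 and 11.02 ± 1.94 CPM (log2 difference 0.20, −0.34 to 0.74, adjusted p = 0.745). That difference was 0.06 without control 3, 0.11 without control 2, 0.12 without DKO 3, 0.13 without DKO 4 and 0.37 without control 5. In the anterior piece Cdx2 and Cdx4 were too low to be tested.

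Anterior Cdx1 was the member with the largest genotype difference relative to its spread. It averaged 8.22 ± 1.08 CPM in controls and 10.6 ± 1.63 in DKO libraries, a log2 difference of 0.35 (SE 0.129, 95% interval 0.07 to 0.64). This did not pass the correction over all genes (unadjusted p = 0.0189, edgeR adjusted p = 0.285). The groups overlapped through control 2 (9.65 CPM, 20 somites), which lay above DKO 2 (9.16 CPM, 24 somites). At equal somite number the DKO library was above the control in each case: 12.9 against 9.65 CPM at 20 somites, 9.75 against 8.33 and 8.29 at 23, and 9.16 against 6.61 at 24. These few pairs share the libraries of the test and add no independent support. The anterior DKO libraries also held more of the 12 neural tube genes (sums of 911 to 1004 CPM, against 686 to 846 in anterior controls), and the part of this in the Cdx1 difference was not tested.

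At equal stage, posterior Cdx2 and Cdx4 differed little at 20 somites, where control 2 and DKO 3 held 152 and 154 CPM of Cdx2 and 128 and 132 CPM of Cdx4. At 24 somites control 3 and DKO 2 held 67.2 and 84.0 CPM of Cdx2 and 50.1 and 60.9 CPM of Cdx4. At 23 somites the direction differed between the genes: DKO 4 had more Cdx2 (136 CPM) than controls 1 and 5 (80.9 and 97.3) and less Cdx4 (59.2 CPM) than both (64.1 and 84.0).

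The difference between pieces was also measured within each embryo, as posterior minus anterior log2 CPM. For Cdx2 it averaged 8.02 ± 1.06 in controls and 8.15 ± 1.29 in DKO embryos, for Cdx4 9.19 ± 0.67 and 9.12 ± 0.30, and for Cdx1 0.15 ± 0.51 and 0.05 ± 0.20 (SD, n = 5 and 4). DKO minus control was 0.13 for Cdx2 (exact two-sided permutation p = 0.873), −0.08 for Cdx4 (exact p = 0.849) and −0.10 for Cdx1 (exact p = 0.722) (the smallest p this design allows is 0.00794). Adjusted over these 3 comparisons, each p is 0.873. The Cdx4 values and their test are set largely by the prior count, since the anterior libraries hold 0 to 8 counts of it. The same holds for Cdx2 in the 5 embryos with 1 to 3 anterior counts, and its DKO minus control value ranged from −0.32 to 0.72 with 1 embryo left out, so these 2 tests say little about a genotype difference. The lowest Cdx2 values, 6.37 in DKO 4 and 6.61 in control 5, belong to embryos with many anterior Cdx2 counts. In the fit over all 18 libraries no member passed the test of a genotype effect that differs between pieces (log2 values of −0.16 for Cdx1, 0.00 for Cdx2 and 0.76 for Cdx4, edgeR adjusted p from 0.999 to 1). For Cdx2 and Cdx4 this outcome carries little information, because the anterior side of the comparison rests on the few counts given above. There edgeR called 0% of the 16428 genes tested (567 at an unadjusted p under 0.05, and 10 called by DESeq2). That fit had no embryo term, so it ignored that the 2 pieces of an embryo are paired. With the embryo as a block, edgeR also called 0 genes (860 at an unadjusted p under 0.05). The edgeR adjusted p was then 0.9385 for Cdx1, 0.991 for Cdx2 and 0.8997 for Cdx4.

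**Figure D3:**
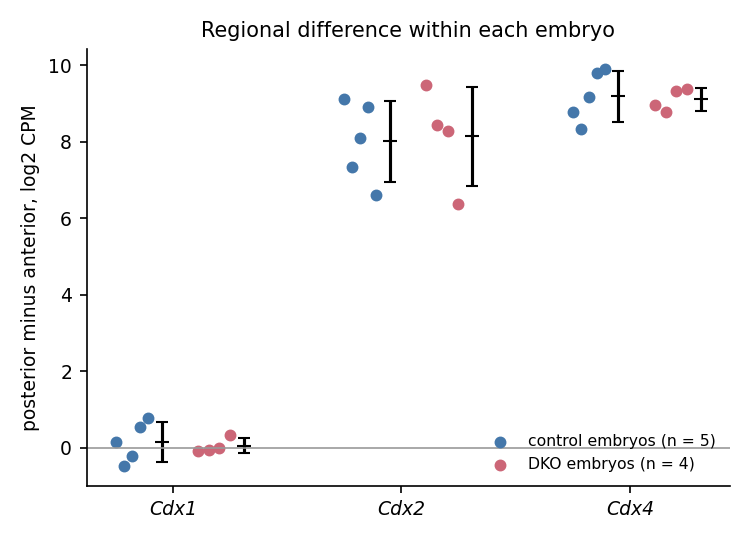
Posterior minus anterior log2 CPM (vertical axis) for each gene; each point is 1 embryo, blue for control and red for DKO, with the mean ± SD beside each set and a grey line at 0. Every Cdx2 and Cdx4 value lies above 6, every Cdx1 value between −0.47 and 0.77, and the genotypes overlap for each gene.

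Posterior Cdx4 and Cdx2 were lower in embryos with more somites. For Cdx4 the mean was 130 CPM at 20 somites (2 embryos), 78.0 at 21, 86.6 at 22, 69.1 at 23 (3 embryos) and 55.5 at 24 (2 embryos). Both 20-somite libraries exceeded all others, and the lowest value was that of control 3, at 24 somites. Cdx2 averaged 153 CPM at 20 somites, 97.6 at 21, 124 at 22, 105 at 23 and 75.6 at 24, and the 23-somite libraries were the most spread (80.9 to 136). Posterior Cdx1 averaged 9.92 CPM at 20 somites (6.96 in control 2 and 12.9 in DKO 3), 12.0 at 21, 10.1 at 22, 11.9 at 23 and 7.21 at 24, so its 20-somite libraries did not stand above the others.

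Across the 9 embryos the correlation of posterior log2 CPM with somite number was r = −0.91 for Cdx4 (exact permutation p = 0.00112, and 0.00450 adjusted over the 4 relations computed) with rho = −0.86 (exact p = 0.00463, adjusted 0.0164). For Cdx2 it was r = −0.77 (exact p = 0.0192, adjusted 0.0384) with rho = −0.83 (exact p = 0.00820, adjusted 0.0164). For Cdx1 it was −0.62 in the anterior piece (exact p = 0.0704, adjusted 0.0938; rho = −0.50, exact p = 0.170, adjusted 0.227) and −0.22 in the posterior (exact p = 0.559, adjusted 0.559; rho = −0.31, exact p = 0.417, adjusted 0.417). Without the 2 embryos of 20 somites, those farthest from the median of 23, r was −0.72 for Cdx4 (exact p = 0.0619, adjusted 0.248) and −0.50 for Cdx2 (exact p = 0.267, adjusted 0.356), so the calls rest on these 2 embryos while the direction stays. Posterior Cdx1 had r = −0.55 among the same 7 embryos (exact p = 0.202, adjusted 0.356), close to that of Cdx2, and anterior Cdx1 had r = −0.32 (exact p = 0.483, adjusted 0.483). The Cdx2 relation also missed the threshold without any 1 of 7 embryos (controls 1, 2, 3 and 5, and DKO 1, 2 and 3), with r between −0.78 and −0.70. Anterior Cdx1 passed it only without control 4 (r = −0.73, exact p adjusted 0.0468).

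In the edgeR fit with genotype as a term, the posterior slope per somite was −0.28 on the log2 scale for Cdx4 (SE 0.0411, unadjusted p = 3.65e-05) and −0.21 for Cdx2 (SE 0.0423, unadjusted p = 0.000448). Neither passed over all genes (adjusted p = 0.116 and 0.193), where 0.0126% were called. Both passed with DESeq2 (adjusted p = 4.67e-07 and 0.000448), which called 139 of 15936 genes. With no filter on low counts both passed as well (edgeR adjusted p = 0.00386 and 0.0323), where 29 of 31069 genes were called. The slopes were of the same size in both settings. Both also passed without DKO 4 (edgeR adjusted p = 0.0438 for each), where 29 of 16351 genes were called. Cdx4 passed without control 4 (0.0310) or control 5 (0.0438), where 10 of 15654 and 2 of 15913 genes were called. Cdx1 had a slope of −0.06 in the posterior piece (adjusted p = 0.9999), which became 0.01 without control 3 and −0.16 without control 2. Without both 20-somite embryos, an alternative added after the data were seen, the posterior slopes were −0.20 for Cdx4, −0.19 for Cdx2 and −0.21 for Cdx1 (edgeR adjusted p = 0.9999 for each). In the anterior piece its slope was −0.11 (SE 0.0299, adjusted p = 0.171), where 0.0328% of genes were called.

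Somite number and sex cannot be told apart in these embryos. All 4 embryos without Y-linked reads (Xist 397 to 672 CPM) had 20 to 22 somites, and all 5 with them (Xist 0.172 to 0.787 CPM) had 23 or 24. Posterior Cdx4, an X-linked gene, averaged 106 CPM in the former (78.0 to 132) and 63.7 in the latter (50.1 to 84.0), and autosomal Cdx2 averaged 132 (97.6 to 154) and 93.1 (67.2 to 136). With the presence of Y-linked reads as a covariate, added after the data were seen, the slopes were −0.35 for both genes (edgeR adjusted p = 0.766 for Cdx4 and 0.662 for Cdx2) and −0.23 for posterior Cdx1 (0.997), and the anterior Cdx1 slope was −0.17 (0.584).

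**Figure D4:**
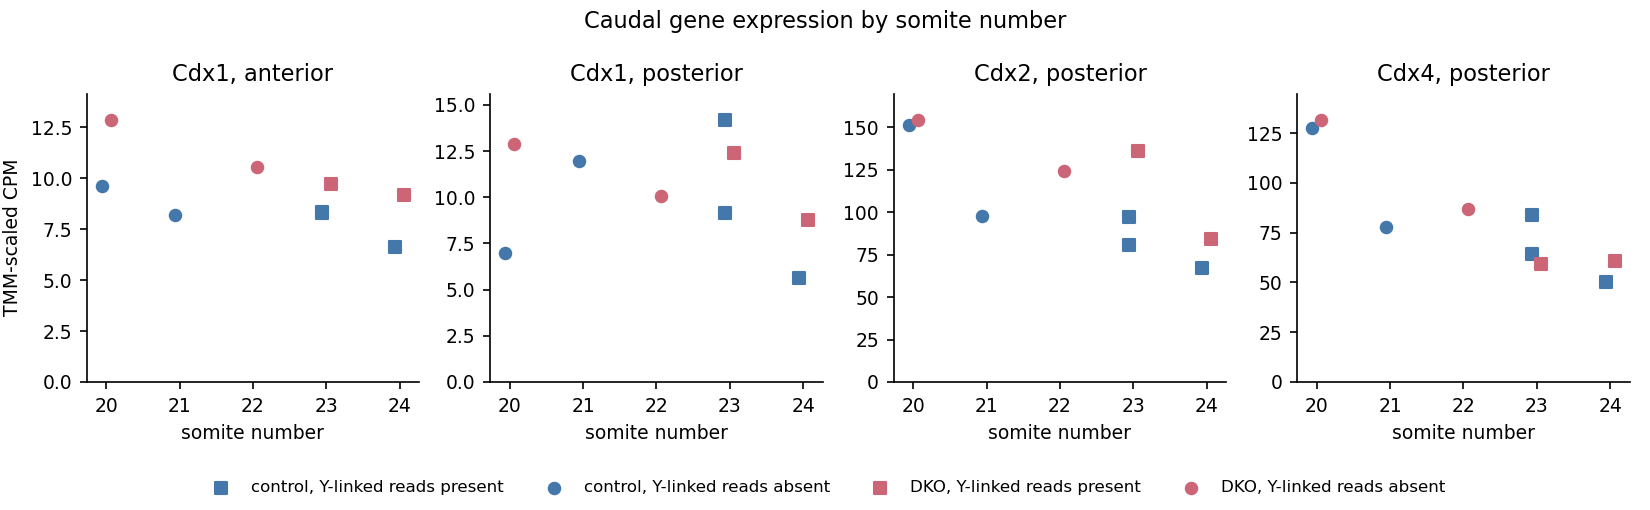
TMM-scaled CPM (vertical axis, from 0) against somite number (horizontal axis) for Cdx1 in both pieces and for Cdx2 and Cdx4 in the posterior piece; each point is 1 library, coloured by genotype, with squares where Y-linked reads were present and circles where they were absent. Both 20-somite embryos have the highest posterior Cdx4 (128 and 132 CPM) and Cdx2 (152 and 154 CPM), and every square is at 23 or 24 somites.

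Other genes of the posterior axis were read beside the members, from gene lists chosen with earlier results of these data known. Of 18 axial progenitor and presomitic genes, 16 were higher and 1 lower on the posterior side in controls (median log2 difference 2.86, against −0.01 over all genes tested), and 15 and 1 in DKO embryos (median 2.82). Over all genes tested, 12.1% were higher and 13.3% lower in controls, and 8.76% and 9.7% in DKO embryos. The counts of the lists that follow stand beside these same shares. Msgn1, a basic helix-loop-helix factor of presomitic mesoderm, averaged 17.9 CPM in posterior and 0.0155 CPM in anterior controls, a pattern close to that of Cdx4. T (brachyury), a T-box factor of the tail bud, averaged 95.5 and 4.15 CPM. The 1 called lower was Sox2, a neural and progenitor factor, at 95.2 CPM in posterior and 155 CPM in anterior controls (log2 difference −0.70, edgeR adjusted p = 1.68e-05). Lfng, a Notch-modifying enzyme gene of the segmentation clock, had a log2 difference of −0.39 that did not pass (adjusted p = 0.102), and Sp5, a Wnt-responsive factor, passed in controls but not in DKO embryos (log2 difference 0.46, adjusted p = 0.192; test of the difference between genotypes, adjusted p = 0.999).

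Among 21 signalling genes that act upstream of Cdx genes, 15 were higher and 3 lower posteriorly in controls (median log2 difference 0.89) and 12 and 3 in DKO embryos (median 0.92). Fgf17, an FGF ligand, was closest in size to the Cdx genes, with 39.1 CPM in posterior and 0.138 CPM in anterior controls (log2 difference 8.24, adjusted p = 1.95e-08). Fgf8, another FGF ligand, was at 21.0 and 2.71 CPM (log2 difference 2.95, adjusted p = 8.12e-07). Rarg and Rarb, retinoic acid receptors, went opposite ways, with log2 differences of 1.87 (adjusted p = 2.32e-06) and −1.57 (adjusted p = 2.11e-05). Fgf8 and Wnt3a are also among the described targets of CDX factors, so the lists share members.

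Of 11 described CDX targets outside the Hox clusters, 10 were higher and 1 lower posteriorly in each genotype (medians 2.88 in controls and 2.46 in DKO embryos). Cyp26a1, which degrades retinoic acid, was at 42.9 CPM in posterior and 3.44 CPM in anterior controls (log2 difference 3.68, edgeR adjusted p = 1.37e-07). Pax3, a dermomyotome and dorsal neural factor, was the 1 that was lower (log2 difference −0.25, adjusted p = 0.0201). Of 15 trunk Hox genes of groups 5 to 9, 13 were higher and 2 lower posteriorly in controls (median 2.05) and 11 and 1 in DKO embryos (median 1.97). Hoxc9 was at 46.1 against 1.26 CPM in controls (log2 difference 5.23, adjusted p = 3.37e-07). Hoxd9 was at 44.8 against 3.54 CPM (log2 difference 3.85, adjusted p = 0.00418), with anterior controls spread from 0.259 to 16.1 CPM, and its log2 difference in DKO embryos was 8.08 (adjusted p = 2.90e-07), above the 5.25 of Hoxc9. Hoxb5 and Hoxc5 were the 2 called lower in controls.

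Markers of other tissues moved with the pieces as well. Of 14 gut endoderm genes tested in controls, 10 were higher and 1 lower posteriorly (median log2 difference 1.13), and among 13 in the DKO embryos also 10 and 1 (median 1.32). Their summed level over 15 genes was 283 to 411 CPM in posterior and 139.7 to 250.8 CPM in anterior controls, and 399 to 492.6 against 157 to 243 CPM in DKO embryos. The endoderm factor Sox17 did not pass the test (7.09 CPM posterior and 7.42 anterior in controls, edgeR adjusted p = 0.859). All 12 neural tube genes were lower in the posterior piece in each genotype (medians −0.84 and −0.92), with summed levels of 315 to 457 against 686 to 846 CPM in controls. Of 11 dermomyotome and myotome genes, 1 was higher and 8 lower in controls (median −0.90), and 0 and 6 of 10 in DKO embryos (median −1.26). The 12 sclerotome genes split into 5 higher and 4 lower in controls (median −0.01) and 2 and 3 in DKO embryos (median −0.17). For each of these lists the shares over all genes tested were 12.1% higher and 13.3% lower in controls, and 8.76% and 9.7% in DKO embryos. In this bulk RNA, fewer cells of a type and less RNA per cell cannot be told apart, and the part of tissue makeup in the Cdx differences was not tested.

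Between genotypes, none of the genes of these 8 lists was called in the posterior piece, and 1 was called in the anterior piece, a neural tube gene (Hes5, higher in DKO libraries). By sign alone, and beside medians over all genes of 0.00 anterior and 0.01 posterior, DKO minus control was above 0 in all 12 neural tube genes in both pieces (median log2 differences of 0.33 anterior and 0.30 posterior), and below 0 in all 12 sclerotome genes in the posterior piece (median −0.48), with 4 of 12 above 0 in the anterior (median −0.14). Of the dermomyotome and myotome genes tested, 3 of 11 were above 0 in the anterior piece (median −0.42) and 2 of 8 in the posterior (median −0.37). In the posterior piece 16 of 18 axial progenitor genes (median 0.19) and 11 of 15 gut endoderm genes (median 0.30) were above 0, beside the Cdx2 difference of 0.33; their part in it was not tested. With somite number, none was called in the posterior piece. The slopes there were negative in 16 of 18 axial progenitor genes (median −0.13 per somite, against 0.00 over all genes) and in 10 of 11 described CDX targets (median −0.09), 7 of which are also in the axial progenitor list. They were positive in 12 of 12 neural tube genes (median 0.12), 12 of 12 sclerotome genes (0.15) and 8 of 8 dermomyotome genes tested (0.23). The summed axial progenitor level was 1195 and 1346 CPM in the posterior libraries of 20 somites and 871 and 917 CPM in those of 24, so it was lower together with Cdx2 and Cdx4; whether tissue makeup has a part in this was not tested.

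**Figure D5:**
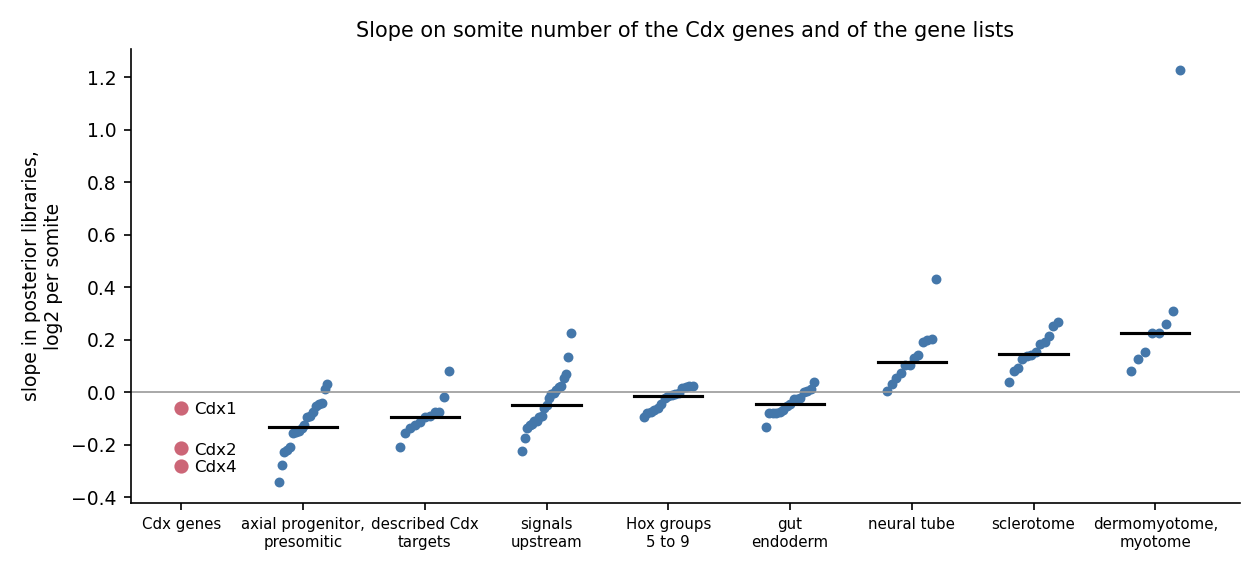
Slope on somite number in the 9 posterior libraries (vertical axis, log2 per somite, from the fit with genotype as a term) for the 3 Cdx genes (red) and the genes of 8 lists (blue, ordered by value, 1 point per gene, black line at the list's median). Cdx4 (−0.28) and Cdx2 (−0.21) lie among the lower axial progenitor genes, whose median is −0.13, while the neural tube, sclerotome and dermomyotome medians are above 0; no gene shown passed the correction over all genes.

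The genes whose profile was most like each member were ranked by Pearson correlation of log2 CPM among 11799 protein-coding candidates. Over all 18 libraries, where the points share the split between pieces, those nearest Cdx2 were Tbx6 (r = 0.986), a T-box factor of presomitic mesoderm, Ifitm1 (0.984), Gad1, Peli3 and Rftn1 (0.982 each). Those nearest Cdx4 were Msgn1 (0.996), Peli3, T and Hoxc10 (0.993 each) and Pcolce2 (0.992). Cdx4 was number 21 in the Cdx2 ranking, at r = 0.973. Cdx1 had no partner as close, its nearest being Tatdn2 (0.871), Sh3tc2 (0.813), Vegfb (0.805), Tmem160 (0.795) and H2afx (0.793), and its r with Cdx2 and with Cdx4 was 0.201.

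Over the 9 posterior libraries alone, where the points share embryo and stage, the nearest genes were others, except that Rftn1 stayed among the 5 nearest to Cdx2. Cdx4 was closest to Nkx1-2 (0.971), a homeobox gene of the caudal epiblast, Prickle1 (0.962), Epha5 (0.948), Dnmt3b (0.947) and Herc3 (0.946). Cdx2 was closest to Socs2 (0.973), Rftn1 (0.969), Tcea3 (0.963), the claudin gene Cldn7 (0.958) and Cited1 (0.949). Cdx1 was closest to Pyroxd1 (0.970), Sumf1 (0.964), Sec22a (0.921), Them6 (0.913) and Shank1 (0.896). Cdx2 and Cdx4 correlated at 0.784 there, which put Cdx4 at number 153 for Cdx2. Nkx1-2 had its highest posterior levels in the 20-somite embryos, control 2 (75.4 CPM) and DKO 3 (81.3 CPM), as Cdx4 had. Cldn7 was high in DKO 4 (14.9 CPM) as well as in control 2 (14.5 CPM), DKO 1 (14.8 CPM) and DKO 3 (15.96 CPM), which are the libraries highest in Cdx2.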

How the data were processed

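The authors deposited 1 table of expected counts per gene for the 18 libraries, which they made from reads of 61 bases with RSEM on GRCm38 (CASAVA and cutadapt are also named), per the submitters' processing notes; the strand setting is not given in the sources used here. Expected counts were rounded. GENCODE M21 named 53360 identifiers and left 105 unnamed. The pieces of an embryo were matched by genotype, sex label and somite number; residuals of the same embryo correlated at 0.256 to 0.57 in 9 of 9 pairs, against −0.283 to 0.092 for other embryos of a genotype.

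Genes were tested with edgeR 4.0.16 (TMM, filterByExpr with a count minimum of 10 and a total of 15, quasi-likelihood F-test) in R 4.3.3, with Benjamini-Hochberg adjustment over all genes tested and a threshold of 0.05. DESeq2 1.42.0, other scalings, filters, covariates and left-out embryos were alternatives. Levels are CPM; a prior count of 2 entered their logarithms. Exact permutation tests used scipy 1.17.1. The fits were also run on simulated counts of independent libraries with a fixed dispersion. That run checks the code only, not the fits at the spread or pairing of these embryos. Members and gene lists were chosen with earlier results of these data known. Besides the members and Meis1 and Meis2, genes are named by rule: up to 4 called genes with the largest change per list, the 5 most correlated protein-coding candidates with a mean of at least 50 posterior counts, and the 3 nearest protein-coding genes on each side; Sox2, Lfng, Sp5, Wnt3a, Rarb, Sox17, Pax3, Hoxb5 and Hoxc5 were named after their values were seen.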

Additional observations from a re-analysis of the deposited data

Results flagged for a closer look

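Anterior Cdx4 in control 2 stood away from the other anterior controls, at 0.310 CPM (8 counts) against 0.0567 CPM (1 count) in control 1 and 0 in the other 3. Among 14 groups of values tested for a library far from the rest, it was the only one flagged. Chance flags about 1 in 20 groups, so 1 flag among 14 groups is not unusual. Anterior control 2 also had 22 counts of Cdx2 (0.852 CPM), where control 5 was higher in CPM (0.907).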

How the results depend on the processing

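Cdx2 and Cdx4 stayed higher in the posterior piece and past the threshold under every alternative run in both genotypes (log2 differences of 7.26 to 9.32 for Cdx2 and 9.29 to 11.63 for Cdx4), and no genotype difference of a member passed under any. The embryo as a block changed no call of a member (Cdx2 7.84 and 7.81, Cdx4 9.68 and 10.30, in controls and DKO embryos). Posterior Cdx4, DKO minus control, was −0.0338 with Y-linked reads as a covariate, and Cdx2, genotype effect posterior minus anterior, was 0.0131 with upper quartile scaling. The posterior slopes of Cdx2 and Cdx4 passed with DESeq2 (−0.22 and −0.28) and with no filter on low counts (−0.22 and −0.28). The correlations with somite number missed it without both 20-somite embryos (−0.50 for Cdx2, −0.72 for Cdx4).

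With 1 embryo left out at a time, DKO minus control in the posterior piece ranged from −0.23 to 0.29 for Cdx4, 0.21 to 0.54 for Cdx2 and 0.06 to 0.37 for Cdx1, and posterior minus anterior Cdx1 from 0.05 (without control 5) to 0.37 (without control 2) in controls and from −0.0474 (without DKO 4) to 0.10 in DKO embryos. The genotype effect posterior minus anterior ranged from −0.32 to 0.0122 for Cdx1, −0.49 to 1.58 for Cdx2 (highest without DKO 4) and −1.32 (without control 2) to 1.09 for Cdx4. The posterior slope ranged from −0.16 to 0.0116 for Cdx1, −0.25 to −0.17 for Cdx2 and −0.31 to −0.26 for Cdx4. The correlation with somite number ranged from −0.73 to −0.41 for anterior Cdx1, −0.59 to 0.10 for posterior Cdx1, −0.89 to −0.70 for Cdx2 and −0.95 to −0.87 for Cdx4. The within-embryo difference, DKO minus control, ranged from −0.25 to 0.057 for Cdx1, −0.32 to 0.72 for Cdx2 and −0.29 to 0.10 for Cdx4. The causes were not tested.

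Counts of called genes moved more: 6 with edgeR against 296 with DESeq2 between genotypes in the anterior piece, 2 against 162 in the posterior, 0 against 10 for their difference, and 5 against 353 and 2 against 139 for the anterior and posterior slopes. With no filter they were 83, 14, 0, 162 and 29. With 1 embryo left out they ranged from 1 (without DKO 1) to 57 (without DKO 2), 2 to 24 (without DKO 2), 0 to 1 (without DKO 2), 0 to 134 (without control 4) and 0 to 29 (without DKO 4). The counts between pieces ranged from 2922 to 3377 in controls (3884 with all) and from 1728 (without DKO 1) to 2550 in DKO embryos (2913 with all). With the embryo as a block, which uses the pairing, they were 5136 in controls and 3004 in DKO embryos. Depth limits anterior Cdx4 and most anterior Cdx2 values, which lie at or near 3 counts.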

Other observations

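Among the nearest protein-coding neighbours of the members, Urad, a gene of urate breakdown 7.7 kb from Cdx2, had 0 counts in all 9 anterior libraries and 6 to 48 counts in the 9 posterior ones. Its posterior level was highest in the 20-somite embryos, at 2.06 CPM in control 2 and 2.08 CPM in DKO 3, against 0.303 to 1.11 CPM in the others. The ParaHox genes on the other side of Cdx2 did not share its pattern: Pdx1, a pancreas and duodenum factor 25 kb away, averaged 0.0492 CPM in posterior and 0.380 CPM in anterior controls, and Gsx1, a neural factor, had 0 CPM in all posterior libraries and averaged 0.0978 CPM in anterior controls.

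Chic1, 25.9 kb from Cdx4, averaged 18.7 ± 3.57 CPM in posterior and 9.78 ± 0.77 CPM in anterior controls (n = 5; log2 difference 0.94, edgeR adjusted p = 0.000116) and 18.7 against 9.22 CPM in DKO libraries (log2 difference 1.02, adjusted p = 0.00101). Next to Cdx1, Slc6a7 (4.6 kb away) was at 0.115 CPM in anterior and 0.0912 CPM in posterior controls, and Pdgfrb, a growth factor receptor gene of mesenchyme, was at 85.7 and 80.4 CPM.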
